A study of Mus musculus with 6 samples.

Results

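Type I interferon response genes are genes that cells switch on after interferon binds its receptor, and 35 of them were followed here in the liver of sickle cell mice. They were taken by symbol, and all 35 were found among the 24421 genes of the count tables and passed the filter on low counts, which left 12622 genes to test. Liver total RNA was sequenced from 3 SS and 3 AS libraries of 7-month-old mice. The SS mice are labelled Hbatm1(HBA)Tow, Hbbtm2(HBG1,HBB*)Tow, so that human alpha-globin and human sickle beta-globin with a gamma-globin gene stand at the mouse globin loci. The AS mice carry the same alpha-globin replacement, with the sickle allele over Hbbtm3(HBG1,HBB)Tow, which holds normal beta-globin. The controls therefore also carry a sickle allele and human globins, and no mouse with its own globin genes is in the comparison. The labels give no sex, litter or batch, and do not say that replicates are separate animals, so each p-value reflects the spread between libraries, which may be technical.

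Interferons of type I signal through the receptor chains IFNAR1 and IFNAR2 and the kinases JAK1 and TYK2. These activate STAT2, which works with IRF9 at an element in the promoters of induced genes. The induced proteins sense foreign nucleic acid, degrade or block viral RNA, alter membranes, and feed back on the signal. In liver, hepatocytes, endothelial cells and macrophages can all respond, and a piece of liver mixes their RNA. In such bulk samples more cells of a type and more RNA per cell cannot be told apart.

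The 4 promoter windows that follow belong to the members with the lowest p among those whose window holds the interferon-type element searched for, and show where it lies. They are RefSeq windows on GRCm38.p6, reaching from 250 bases before to 50 bases after the annotated gene start and written 5′ to 3′ on the strand of the gene. Capitals mark GAAA followed, after any 2 bases, by a second GAAA, or the reverse complement of that pattern (TTTC, any 2 bases, TTTC), with overlapping matches joined.
Rsad2, chr12:26456403-26456702, minus strand: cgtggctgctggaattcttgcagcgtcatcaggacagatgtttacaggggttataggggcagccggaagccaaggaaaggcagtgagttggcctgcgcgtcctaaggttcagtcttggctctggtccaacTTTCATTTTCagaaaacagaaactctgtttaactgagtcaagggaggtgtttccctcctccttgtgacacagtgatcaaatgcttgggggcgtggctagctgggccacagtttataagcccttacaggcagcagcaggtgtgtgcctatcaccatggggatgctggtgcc
Oas3, chr5:120777610-120777909, minus strand: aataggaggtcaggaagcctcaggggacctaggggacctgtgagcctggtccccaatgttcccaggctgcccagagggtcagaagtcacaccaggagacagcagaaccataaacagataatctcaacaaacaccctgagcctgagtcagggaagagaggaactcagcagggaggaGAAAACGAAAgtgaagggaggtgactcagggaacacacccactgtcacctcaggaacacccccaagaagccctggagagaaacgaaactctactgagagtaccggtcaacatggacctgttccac
Oas1a, chr5:120907476-120907775, minus strand: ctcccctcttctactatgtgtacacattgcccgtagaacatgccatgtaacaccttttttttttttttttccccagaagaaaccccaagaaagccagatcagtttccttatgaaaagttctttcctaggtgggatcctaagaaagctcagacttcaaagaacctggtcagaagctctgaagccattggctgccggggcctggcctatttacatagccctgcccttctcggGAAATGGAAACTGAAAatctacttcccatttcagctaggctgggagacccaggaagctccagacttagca
Isg15, chr4:156200769-156201068, minus strand: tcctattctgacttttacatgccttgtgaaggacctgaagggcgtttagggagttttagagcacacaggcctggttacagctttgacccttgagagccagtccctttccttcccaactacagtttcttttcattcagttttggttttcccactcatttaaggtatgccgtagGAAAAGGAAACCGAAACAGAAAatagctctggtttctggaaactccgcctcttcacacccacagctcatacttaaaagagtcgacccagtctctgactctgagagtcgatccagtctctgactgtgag
The element begins 120 bases before the start of Rsad2, where it lies on the opposite strand, and 75 bases before the start of Oas3. In Oas1a it begins 20 and 14 bases, and in Isg15 78, 72 and 66 bases, before the start, as overlapping copies. Of the 35 members, 26 had a window and 13 of these (50%) held the element on either strand, against 365 of 9653 tested genes with a window (3.78%) and 1131 of all 32851 windows (3.44%). None of the 3 windows of Isg20 held it, nor did those of Ifi44 and Cmpk2. A match describes the letters only, and a window without one says nothing of the factors that act there.

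In SS liver 2 of the 35 genes rose, Rsad2 by 6.57-fold and Isg20 by 9.12-fold, and none fell. The other 33 did not pass the test. Calls were made at an adjusted p under 0.05 in edgeR's quasi-likelihood test, with the Benjamini-Hochberg method applied over all genes tested. For 13 of those 33 the 95% interval lay within a 2-fold change either way, and for the other 20 it reached beyond. The 2 calls make 5.71% of the members, where 0.911% of all genes tested were called higher and 0.0555% lower. The median log2 fold change of the members was 0.23, against 0.08 for all genes tested, and 26 of 35 (74.3%) had a higher fitted value, against 56.3% of all genes. Every SS library stood above every AS library in 8 members (22.9%, against 12.1% of all genes tested), and none stood below throughout (9.04% of all genes). At an unadjusted p under 0.05, 7 members were higher (20.0%, against 9.12% of all genes) and 0 were lower (3.58%).

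Libraries differed in ways that genotype does not cover. Gene reads ran from 6971289 to 13700194 in SS and from 6670011 to 12658869 in AS libraries. SS replicate 1 had 78.5% of its records not assigned to a gene for any reason, against 66.6% to 69.7% in the other 5 libraries. Adult mouse globin genes, replaced in both genotypes, had 0 counts throughout, which cannot tell SS from AS. On the first principal component (43.5% of the variance) SS replicate 3 and AS replicate 1 lay at opposite ends. AS replicates 2 and 3 were the closest pair, with a mean chi-square of 4.02 a gene, while the other 14 pairs had 28.1 to 171. Each call was therefore repeated with this pair summed as 1 library, and with SS replicate 3 and AS replicate 1 omitted.

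**Figure D1:**
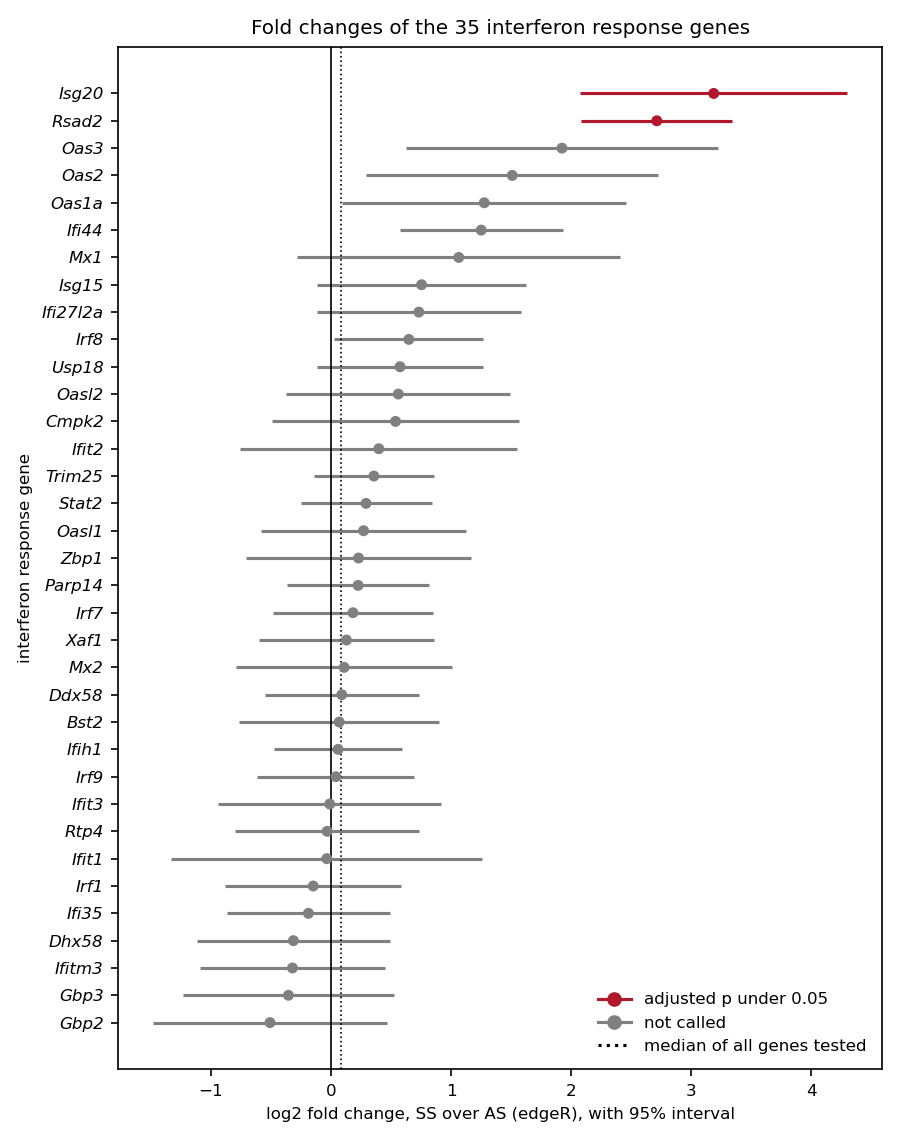
Log2 fold changes of SS over AS (x axis) for the 35 interferon response genes (y axis), with 95% intervals from the edgeR fit. Rsad2 and Isg20, in red, lie at 2.71 and 3.19, while 26 of the 35 points lie above 0 and the dotted line marks the median of all genes tested at 0.08.

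Rsad2 encodes viperin, a radical SAM enzyme that turns a cytidine nucleotide into a chain terminator of viral RNA synthesis. It had 60.2, 81.3 and 74.5 CPM (read counts scaled to library size) in SS replicates 1, 2 and 3, against 8.52, 10.1 and 14.1 CPM in AS replicates 1, 2 and 3. The lowest SS library was thus well above the highest AS library. Rsad2 averaged 72.0 ± 10.8 CPM in SS and 10.9 ± 2.85 CPM in AS (SD, n = 3 each), and its log2 change was 2.71 (SE 0.285, adjusted p = 0.00193 in edgeR). It was called in all 17 alternative fits, at log2 changes of 2.53 to 2.97 and adjusted p of 9.9e-15 to 0.0306. The gene lies on chromosome 12 (26442746 to 26456452, minus strand, mm10) and no other annotated gene overlaps it.

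Isg20 encodes an RNA exonuclease of the interferon response. It had 18.2, 36.98 and 20.97 CPM in the SS libraries, against 1.04, 2.74 and 4.42 CPM in the AS libraries. Again the groups did not overlap, and SS replicate 2 stood highest. Isg20 averaged 25.4 ± 10.1 CPM in SS and 2.73 ± 1.69 CPM in AS (SD, n = 3 each), and its log2 change was 3.19 (SE 0.503, adjusted p = 0.0184 in edgeR). Its call ended in edgeR without AS replicate 1 (log2 change 2.79, adjusted p = 0.0692), AS replicate 2 (3.17, adjusted p = 0.0972) or SS replicate 2 (2.81, adjusted p = 0.0973) and with AS replicates 2 and 3 summed (3.30, adjusted p = 0.0730). It also ended in limma-voom (3.28, adjusted p = 0.0606). Over all 17 alternatives its adjusted p ran from 2.5e-11 to 0.0973, and the log2 change was 3.78 without AS replicate 3.

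Cmpk2, a mitochondrial nucleotide kinase that makes the substrate viperin can use, is the neighbour of Rsad2 on chromosome 12, and its start lies 12752 bases from that of Rsad2 on the other strand. It had 5.94, 6.38 and 2.90 CPM in SS, against 4.15, 2.74 and 3.52 CPM in AS, and the groups overlapped. Its log2 change of 0.54 (SE 0.465, 95% interval -0.49 to 1.57) missed the threshold (edgeR adjusted p = 0.647). Within each library, Rsad2 had 10.1, 12.7 and 25.7 reads for each Cmpk2 read in SS, against 2.06, 3.71 and 4 in AS. Every SS ratio was above every AS ratio, and the exact two-sided permutation test over libraries gave p = 0.1, the smallest that 3 against 3 allows. This pair was compared after its values were seen.

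**Figure D2:**
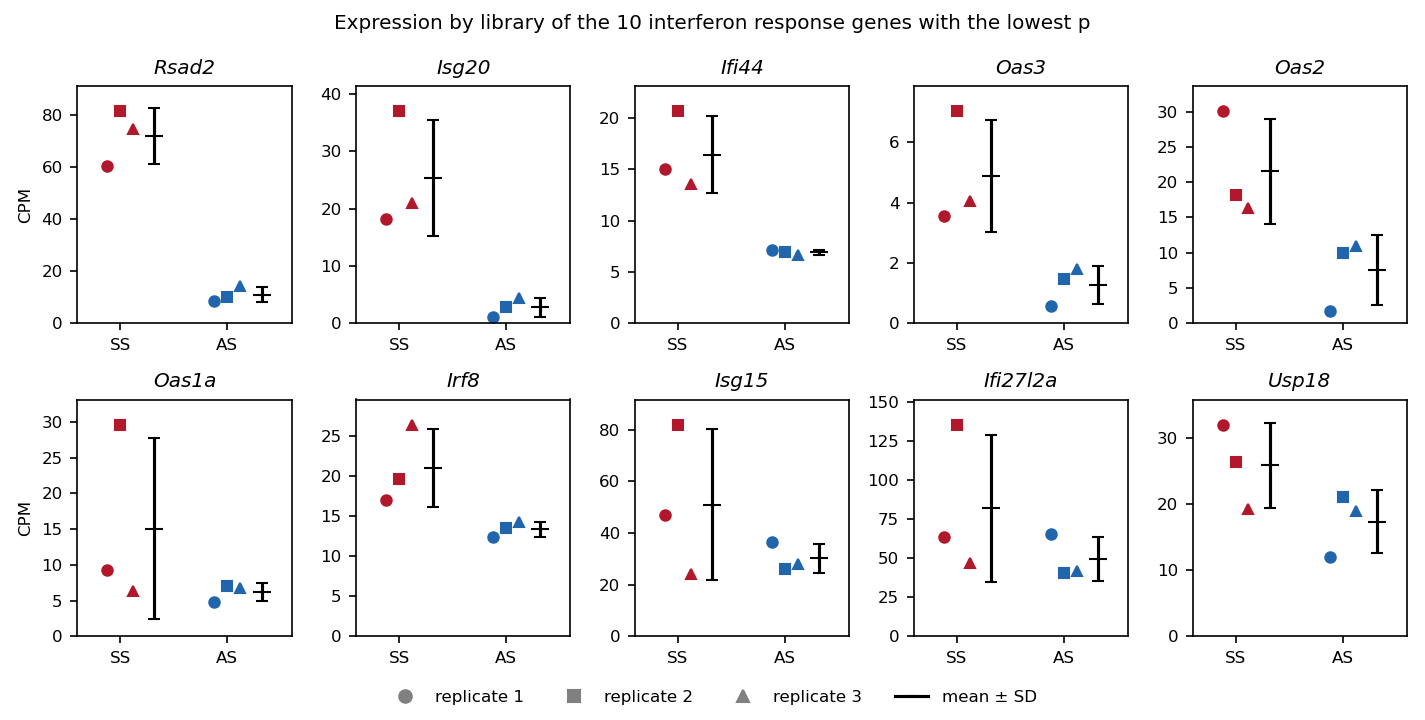
CPM by library (y axis, from 0) of the 10 members with the lowest p, with SS at the left and AS at the right of each panel, a symbol per replicate, and the mean ± SD of 3 libraries beside them. Rsad2 and Isg20 have SS libraries far above AS, while Oas1a, Isg15 and Ifi27l2a have SS replicate 2 above all other libraries.

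Oligoadenylate synthetases make a short adenylate that activates the ribonuclease RNase L. Counting the synthetase-like Oasl1 and Oasl2, 5 of 5 members of the family were fitted higher in SS, against 56.3% of all genes tested. The main edgeR fit called none of them. Oas3 had 3.56, 7.03 and 4.07 CPM in SS, against 0.576, 1.45 and 1.80 CPM in AS (log2 change 1.93, SE 0.588, edgeR adjusted p = 0.197). Oas2 had 30.1, 18.2 and 16.4 CPM in SS, against 1.73, 9.99 and 10.9 CPM in AS (log2 change 1.51, SE 0.550, edgeR adjusted p = 0.292). Both had groups that did not overlap, and the low value of Oas2 in AS replicate 1 widened its gap: without that library the change was 1.03.
Oas1a had 9.24, 29.6 and 6.34 CPM in SS, against 4.84, 7.09 and 6.79 CPM in AS. SS replicate 2 stood alone here, and the log2 change of 1.28 (SE 0.534, edgeR adjusted p = 0.365) was 0.30 without it. Oas1a has close copies in its cluster, such as Oas1g and Oas1b, so reads that match several copies may be lost or split. Oasl1 and Oasl2, which encode synthetase-like proteins, had log2 changes of 0.27 and 0.56 and overlapping groups. In GENCODE, 9 members overlap a gene on the other strand (Oas2, Oasl1, Usp18, Gbp2, Dhx58, Ifi35, Irf1, Irf7 and Rtp4) and 4 overlap one on the same strand (Irf8, Irf9, Parp14 and Rtp4). The strand setting of the counting is not given in the sources used here, so these members' counts are uncertain to that extent.

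Ifi44, a cytoplasmic interferon-induced protein, had the lowest p of the members that were not called. It had 15.04, 20.7 and 13.5 CPM in SS, against 7.14, 6.93 and 6.62 CPM in AS. The 3 AS libraries had an SD of 0.260 CPM, and every SS library was above them. The log2 change was 1.25 (SE 0.307, edgeR adjusted p = 0.107). DESeq2 called it (adjusted p = 0.0273), as did edgeR with library totals alone (0.0439) and without both AS replicate 1 and SS replicate 3 (0.0348), within a range of 0.0273 to 0.385 over the 17 alternatives.

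The factors that carry the signal to promoters did not pass the test. Stat2 had 104, 67.0 and 80.7 CPM in SS, against 60.0, 71.5 and 73.5 CPM in AS (log2 change 0.29, SE 0.247, edgeR adjusted p = 0.638). Irf9, the DNA-binding partner of STAT2, had 46.4, 41.7 and 24.3 CPM in SS, against 30.2, 36.1 and 42.8 CPM in AS (log2 change 0.04, SE 0.295). Both had overlapping groups, and the 95% interval of Irf9, -0.61 to 0.70, still allows changes of over 1.5-fold either way.
Irf7, which amplifies interferon production, had 76.3, 111.6 and 49.3 CPM in SS, against 77.6, 65.6 and 65.7 CPM in AS (log2 change 0.18, SE 0.301). Irf1, a factor shared with the response to interferon gamma, had 36.8, 23.2 and 29.1 CPM in SS, against 19.0, 38.3 and 41.2 CPM in AS (log2 change -0.15, SE 0.331). For both, the groups overlapped. Irf8, a factor of myeloid cells, was the member of this group whose SS libraries all exceeded AS, at 17.0, 19.7 and 26.4 CPM in SS, against 12.4, 13.5 and 14.3 CPM in AS. Its log2 change of 0.65 (SE 0.281) had an edgeR adjusted p of 0.376.

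Isg15, a ubiquitin-like protein that is joined to other proteins, had 47.1, 81.9 and 24.0 CPM in SS, against 36.5, 25.9 and 28.2 CPM in AS. SS replicate 2 was the highest of all libraries and SS replicate 3 the lowest, so the groups overlapped (log2 change 0.75, SE 0.393, edgeR adjusted p = 0.453). Usp18, the protease that removes ISG15 and dampens the receptor, had 31.9, 26.4 and 19.2 CPM in SS, against 11.98, 21.1 and 18.9 CPM in AS (log2 change 0.58, SE 0.313).
Ifi27l2a, a mitochondrial protein of the ISG12 family, had 63.3, 135 and 47.0 CPM in SS, against 65.4, 40.8 and 41.7 CPM in AS (log2 change 0.73, SE 0.385, edgeR adjusted p = 0.456). As with Isg15, SS replicate 2 stood apart: without it the log2 changes of Isg15 and Ifi27l2a were 0.21 and 0.15. Omitting both AS replicate 1 and SS replicate 3, edgeR called Isg15 and Ifi27l2a higher (adjusted p = 0.0297 and 0.0468), each the only one of 17 alternatives to call its gene, with adjusted p otherwise up to 0.769 and 0.829.

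IFIT proteins bind foreign RNA and stop its translation, and none of the 3 passed the test. Ifit1 had 16.1, 23.9 and 3.44 CPM in SS, against 23.3, 9.99 and 11.2 CPM in AS, so the highest and the lowest value of all libraries both came from SS. Its log2 change was -0.03 (SE 0.585, 95% interval -1.33 to 1.26), and those of Ifit2 and Ifit3 were 0.40 and -0.01. Ifit3 has a near copy, Ifit3b, which makes its count uncertain.

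None of the 5 genes for sensing viral nucleic acid was called. Ddx58, which encodes RIG-I, and Ifih1, which encodes MDA5, had log2 changes of 0.09 (SE 0.289) and 0.06 (SE 0.242). Dhx58, a regulator of both, had -0.31 (SE 0.364) and Zbp1, a sensor of Z-form nucleic acid, 0.23 (SE 0.425). Trim25, a ubiquitin ligase that acts on RIG-I, had 107, 104 and 109 CPM in SS, against 69.9, 86.5 and 93.1 CPM in AS. The SS libraries were close together and all above AS, at a log2 change of 0.36 (SE 0.227) that missed the threshold (edgeR adjusted p = 0.529).

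Among antiviral GTPases, Mx1 had 1.98, 3.05 and 1.72 CPM in SS, against 1.27, 0.966 and 0.981 CPM in AS, which rest on 6 to 42 reads a library. The log2 change of 1.06 (SE 0.608) had groups that did not overlap, and its edgeR adjusted p was 0.491. Mx2 had 0.11, and the guanylate-binding proteins Gbp2 and Gbp3 had -0.51 (SE 0.441) and -0.35 (SE 0.396), with overlapping groups. The remaining members, Rtp4, Ifi35, Xaf1 and Parp14, had log2 changes of -0.19 to 0.23, all with adjusted p above 0.7.

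Bst2 encodes tetherin, which holds virus particles at the cell surface, and Ifitm3 a protein that blocks fusion of viruses with endosomes. Scaled by exonic length, Ifitm3 (685 CPM per kb in SS, 856 in AS) and Bst2 (358 in SS, 341 in AS) had the highest levels of the 35 members, followed by Ifi27l2a (177 in SS, 106 in AS) and Isg15 (67.5 in SS, 40.0 in AS). Mx1 (0.594 in SS, 0.283 in AS) and Oas3 (0.692 in SS, 0.180 in AS) had the lowest. Bst2 had 370.4, 449.7 and 149 CPM in SS, against 370.3, 287 and 267 CPM in AS (log2 change 0.07, SE 0.377). Ifitm3 had 454, 682 and 258 CPM in SS, against 675, 564 and 502 CPM in AS (log2 change -0.32, SE 0.349). In both, SS replicate 2 was the highest library and SS replicate 3 the lowest. On the same per-length scale, Rsad2 stood at 16.6 in SS and 2.52 in AS, and Isg20 at 13.6 in SS and 1.47 in AS.

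**Figure D3:**
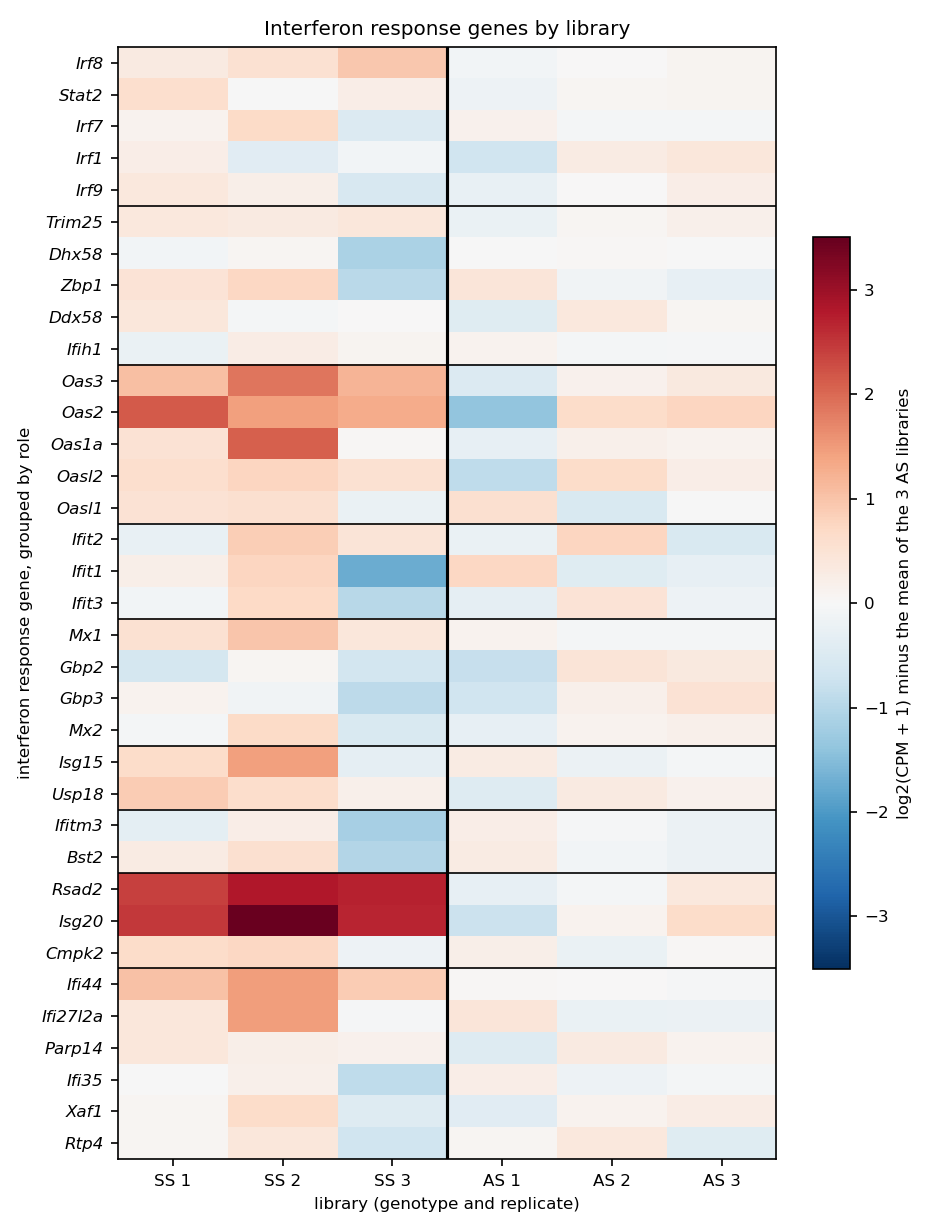
Each cell is log2(CPM + 1) of a member (rows, grouped by role and separated by lines) in a library (columns, SS left of AS), minus the mean of the 3 AS libraries. Rsad2 and Isg20 are high in all 3 SS libraries, whereas most other rows are highest in SS replicate 2 and several are low in SS replicate 3.

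Among the SS libraries, replicates 2 and 3 stood at opposite ends for many members. SS replicate 2 was the highest of all 6 libraries in 23 of 35 members (65.7%), against 14.5% of all genes tested. SS replicate 3 was the highest in 2 members (5.71%), against 29.7% of all genes. Summed over the 35 members, CPM was 1846, 2364 and 1195 in SS replicates 1, 2 and 3, against 1763, 1646 and 1560 in AS replicates 1, 2 and 3. Ifitm3 and Bst2 made up 824, 1132 and 407 CPM of these sums in SS and 1046, 851 and 769 CPM in AS. The other 33 members summed to 1022, 1232 and 788 CPM in SS and 718, 796 and 791 CPM in AS, where SS replicates 1 and 2 lay above every AS library and SS replicate 3 lay within the AS range. Without SS replicate 2, the median log2 change of the members was 0.10, beside 0.10 for all genes, and 19 of 35 members had a higher fitted value. Without SS replicate 3 it was 0.40, beside 0.02 for all genes, with 30 of 35 higher.

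Summed markers of liver cell types also differed between libraries. The summed CPM of 8 Kupffer cell markers, of which none was at 0, was 894, 2248 and 1298 in SS and 961, 761 and 713 in AS, with 8 of 8 fitted higher and 0 called. SS replicate 2 was the highest library in this sum as in the member sum. Red cell precursor markers summed to 226, 419 and 436 CPM in SS and 35.01, 41.1 and 43.6 CPM in AS. Of the 6 tested, 4 were called higher and 1 was fitted lower. Of all genes tested, 0.911% were called higher, which is the share to set beside each list here. Markers of monocytes and recruited macrophages summed to 181, 540.2 and 336 CPM in SS and 222, 170.1 and 158 CPM in AS, with 1 of 7 called higher (Ccr2). Neutrophil markers summed to 27.2, 72.8 and 20.97 CPM in SS and 6.56, 5.80 and 3.35 CPM in AS, with 2 of 4 tested called higher (Mpo and Ngp). B cell markers summed to 8.71, 22.5 and 8.61 CPM in SS and 2.42, 2.09 and 3.35 CPM in AS, with 0 of 4 tested called. Conventional dendritic cell markers summed to 31.01, 25.4 and 26.8 CPM in SS and 11.1, 18.7 and 17.99 CPM in AS. Of the 5 tested, 1 was called higher (Itgax) and 1 was fitted lower. Bile duct cell markers summed to 249, 117 and 140 CPM in SS and 86.1, 105 and 94.1 CPM in AS. The sums of red cell precursor, neutrophil, B cell and conventional dendritic cell markers were higher in every SS library than in any AS library. So were Rsad2, Isg20 and the bile duct sum. Most of the bile duct sum came from Spp1, at 219, 102 and 131 CPM in SS and 69.8, 95.7 and 85.2 CPM in AS. Among single genes, 12.1% of all genes tested were higher in every SS library. This held for 5 of 6 tested red cell precursor, 4 of 4 neutrophil, 2 of 4 B cell, 1 of 5 conventional dendritic cell and 1 of 4 bile duct markers. Plasmacytoid dendritic cell markers, of a cell that makes much type I interferon, summed to 61.6, 37.3 and 24.4 CPM in SS and 35.9, 29.0 and 20.5 CPM in AS, so the groups overlapped, and the 1 marker tested was not called. Of the markers tested for T and NK cells (4), sinusoidal endothelial cells (6) and bile duct cells (4), edgeR called 0. The 6 hepatocyte markers, led by albumin, summed to 69944, 98431 and 70607 CPM in SS and 124045, 86087 and 82198 CPM in AS. All 6 were fitted lower in SS (median log2 change -0.35), and 0 were called. The part of these cells in the results was not tested.

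**Figure D4:**
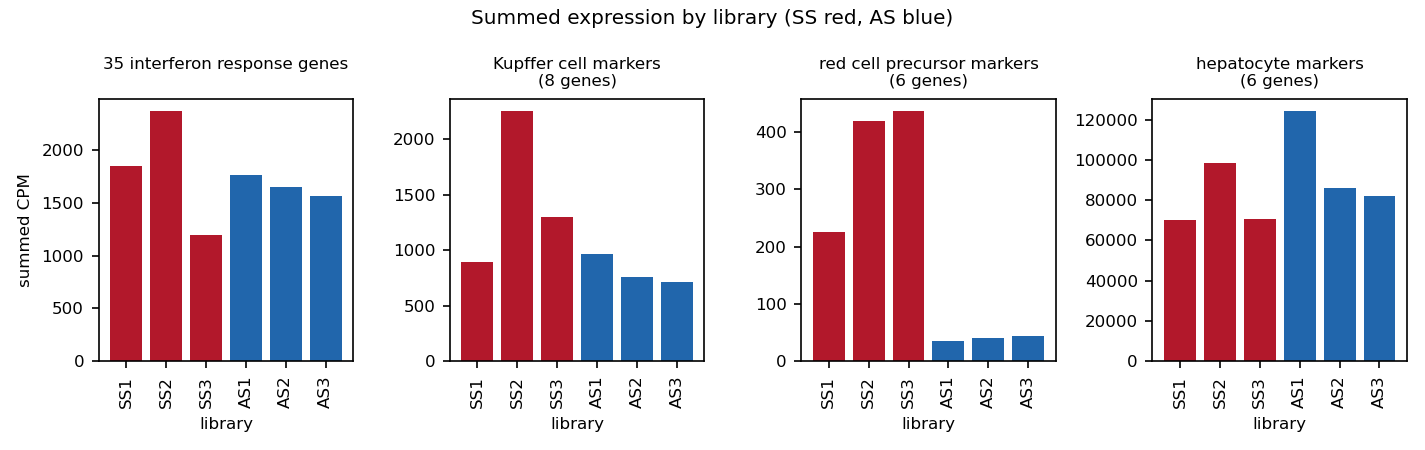
Summed CPM (y axis, from 0) in each library of the 35 interferon response genes and of 3 lists of cell type markers, SS in red left of AS in blue. The member sum peaks at 2364 in SS replicate 2, where the Kupffer cell sum also peaks at 2248, while the red cell precursor sum is at least 226 in SS and at most 43.6 in AS.

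Interferon transcripts themselves were almost absent from the counts. Of 10 interferon genes, 8 had 0 counts in all libraries, which allows up to 3 counts, or 0.218 to 0.483 CPM, in a library. Ifnb1 had 0, 0 and 0 counts in SS and 0, 0 and 1 in AS, and Ifng had 8, 1 and 0 counts in SS and 0, 0 and 4 in AS. None had enough counts to test, and reads from the similar interferon alpha genes may be lost in counting. These limits cover counting error only.

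Genes between the receptor and the nucleus did not pass the test, with 0 of 11 tested receptor and signalling genes called (median log2 change 0.27). The receptor chain genes Ifnar1 and Ifnar2 had log2 changes of -0.04 (SE 0.301) and -0.13 (SE 0.263). The lowest p in the list was that of Socs3, a feedback inhibitor of cytokine receptors, at 9.501, 9.43 and 9.31 CPM in SS, against 2.76, 4.35 and 3.68 CPM in AS. All its SS libraries were above AS (log2 change 1.39, SE 0.361, edgeR adjusted p = 0.126).

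Sensors and adaptors that induce interferon gave 0 calls of 16 tested (median log2 change 0.21). Tlr7, an endosomal RNA receptor, had the lowest p, with 6.73, 4.06 and 9.47 CPM in SS, against 1.38, 1.93 and 2.45 CPM in AS (log2 change 1.80, SE 0.491, edgeR adjusted p = 0.147). Of 33 other interferon-induced genes tested, 0 were called, fitted values were higher for 23, and their median log2 change was 0.47. SS libraries all exceeded AS in 8 of these (24.2%, against 12.1% of all genes tested) and all lay below AS in 2 (6.06%, against 9.04%). Slfn2, a Schlafen family gene of leukocytes, had the lowest p, at 14.9, 24.7 and 14.2 CPM in SS, against 8.18, 4.51 and 9.08 CPM in AS (log2 change 1.29, SE 0.370, edgeR adjusted p = 0.165).

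Genes of the interferon gamma response and antigen presentation leaned the other way, with 13 of 19 fitted lower in SS, a median log2 change of -0.16, and 0 called. The other 6 (31.6%, against 56.3% of all genes tested) were fitted higher, with log2 changes of up to 1.29. In 1 gene (5.26%, against 12.1% of all genes tested) every SS library was above every AS library. Igtp, an immunity-related GTPase, had 51.5, 38.1 and 20.8 CPM in SS, against 65.4, 82.0 and 83.1 CPM in AS (log2 change -1.06, SE 0.322, edgeR adjusted p = 0.193). Together with Irgm2, Iigp1 and B2m, it made up the 4 genes (21.1%, against 9.04% of all genes tested) whose SS libraries all lay below AS. B2m, the light chain of MHC class I, had a log2 change of -0.57 (SE 0.276) and an edgeR adjusted p of 0.425.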

How the data were processed

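The authors deposited raw read counts per gene symbol, 1 table per liver library. HISAT2, HTSeq and the mm10 build are named per the submitters' processing notes; versions, annotation and strand setting are not given in the sources used here. On average 71.0% of SS and 68.7% of AS records were not assigned to a gene and were left out of library sizes. From these deposited counts, edgeR 4.0.16 (R 4.3.3) compared SS with AS over all 6 libraries: filterByExpr (minimum count 10, minimum total 15), TMM factors, robust quasi-likelihood F-test, two-sided, Benjamini-Hochberg adjustment. CPM used the same factors. Standard errors came from the F statistic. The procedure was also run on counts simulated from the mean levels and spread of these data, with each library drawn independently. Such counts hold no close pair and no outlying library, so they cannot show how these affect the calls. Alternatives used DESeq2 1.42.0, limma-voom (limma 3.58.1), other scalings and filters, a replicate block and libraries left out.

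Members, lists and alternatives were chosen with earlier results of these data known. Values per library are given for called members, the 8 others with the lowest p and 5 transcription factors; of each pathway list, the gene with the lowest p and 5 preset genes, of which 1 is not reported here. Values of other members, of Irgm2, Iigp1 and B2m, and of marker genes were chosen after being seen. Positions and exonic lengths come from GENCODE M21, which matched all 35 members.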

Additional observations from a re-analysis of the deposited data

How the results depend on the processing

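Rsad2 was called in all 17 alternatives and no member was called lower in any; 29 members were called in none, and 21 kept their direction in all. The number of members called higher was 1 in limma-voom and 1 with AS replicates 2 and 3 summed. It was 5 on omitting AS replicate 1 and SS replicate 3 together, and 1 to 2 with single libraries left out. The share of all genes tested that was called higher was 0.238%, 0.236%, 2.72% and 0.167% to 0.659% in the same order. In the main fit it was 0.911%, and with the replicate block 2.91%. Omitting AS replicate 1 and SS replicate 3 gave 346 genes higher and 316 lower. All genes called numbered 217 with no filter, 460 with the replicate block, 453 by DESeq2, 31 in limma-voom, 31 with AS replicates 2 and 3 summed, 662 with AS replicate 1 and SS replicate 3 left out, and 22 to 99 with single libraries left out, against 122. The median over members ran from 0.10 to 0.40 in those last fits. With library totals alone the median of all genes moved to 0.36 and that of members to 0.49. Same-numbered libraries correlated at 0.06, -0.16 and 0.24 in their deviations from the group means, so the numbers were not taken as pairs; the replicate block called 3 members (Oas2 added, log2 change 1.67, adjusted p = 0.0161 in edgeR, within a range of 0.0161 to 0.531 over the 17 alternatives) and turned Bst2 to -0.062.

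Directions of uncalled members near 0 turned as follows. With upper-quartile factors, Ifit1 was 0.0014 and Ifit3 0.015. With library totals, Ifit1 was 0.21, Ifit3 0.21, Irf1 0.11, Rtp4 0.22 and Ifi35 0.068. In limma-voom, Irf9 was -0.016 and Bst2 -0.062. With AS replicate 1 and SS replicate 3 left out, Ifit1 was 0.92, Ifit3 0.19, Rtp4 0.26, Ifi35 0.20, Ddx58 -0.047 and Ifitm3 0.092. With AS replicates 2 and 3 summed, Ifit3 was 0.12, Rtp4 0.013 and Bst2 -0.0057. Leaving out single libraries gave -0.64 to 0.43 for Ifit1, -0.56 to 0.32 for Ifit3, -0.44 to 0.046 for Irf1, -0.17 to 0.42 for Irf7, -0.14 to 0.27 for Irf9, -0.37 to 0.38 for Mx2, -0.32 to 0.23 for Rtp4, -0.42 to 0.066 for Ifi35, -0.26 to 0.40 for Bst2, -0.13 to 0.60 for Zbp1, -0.23 to 0.36 for Xaf1, -0.11 to 0.28 for Ddx58 and -0.070 to 0.19 for Ifih1. Beyond the libraries left out, the cause was not tested.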
